A study of Mus musculus with 15 samples.

Results

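The proteasome is the barrel-shaped protease that degrades most short-lived and damaged proteins in the cytosol and nucleus. Its subunit genes were examined in primary mouse chondrocytes treated with 4 inhibitors. Members were all genes with a probe set annotated to a single symbol of the form Psma, Psmb, Psmc, Psmd or Psme followed by a number, taking for each gene its brightest probe set on average. This gave 42 of the 18193 genes on the array, with 88 probe sets among them. The gene for the second PA28 subunit, Psme2, was not a member, because its probe set is annotated to both Psme2 and Psme2b.

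The cells were chondrocytes from hind limb cartilage of CD1 mouse embryos at day 15.5, plated as monolayers, which leaves out the zones and the matrix of the growth plate. There were 3 cultures in each of 5 treatments: LY294002, which blocks PI3K (10 µM); UO126, which blocks the kinase MEK; SB202190, which blocks p38 and which the design text lists with the MEK/ERK inhibitors; TSA (Trichostatin A), which blocks histone deacetylases; and the vehicle DMSO. The doses of UO126, SB202190 and TSA were not given in the sources used here. The labels state 24 hours of treatment, whereas the design text states 2 hours. Total RNA was hybridised to 15 Affymetrix mouse expression arrays.

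In the proteasome, a core particle (20S) of stacked alpha and beta rings encloses the active sites, and a regulatory particle (19S) recognises ubiquitin-tagged proteins, unfolds them and feeds them in. Cells exposed to interferon swap the active-site subunits Psmb5, Psmb6 and Psmb7 for the immunoproteasome subunits Psmb8, Psmb9 and Psmb10, which changes the peptides made for antigen presentation. Chondrocytes of the growth plate make and turn over large amounts of secreted matrix protein, and the proteasome clears proteins that fail to fold on that route. The activators PA28 and PA200 can take the place of the 19S particle at the ends of the barrel.

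Values are log2 signals, and a probe set was tested where its mean in either treatment was at least log2 of 50, which is 5.64. Of the 42 members 41 passed in all comparisons. Psmb11, a catalytic subunit known from the thymus cortex, stayed below this level in all treatments, with 5.29, 5.38 and 5.20 in TSA cultures and 5.44, 5.57 and 5.30 in DMSO cultures. A member was called where limma's test gave an adjusted p under 0.05, with the adjustment made over all probe sets tested.

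The 11 chondrocyte markers were above that level in all treatments. Their summed signal ran between 29300 and 38700 in TSA cultures, 83500 and 86700 with LY294002, 83300 and 96500 with UO126, 56600 and 66300 with SB202190, and 64500 and 68600 with DMSO. All 11 were called lower with TSA, against 23.0% of all genes. With LY294002 4 were higher (9.32% of all genes), with UO126 3 were higher (1.78%) and with SB202190 1 was lower (1.11%). In such cultures fewer cells of a type and less RNA per cell cannot be told apart. Of the leukocyte markers Ptprc and Itgam were below the level in all treatments. Of 14 tested with TSA, 2 (Cd68 and Coro1a) were called higher and 9 lower. Over all genes 27.1% were called higher and 23.0% lower with TSA, the shares to set beside the marker counts that follow too. The summed signal of all 16 leukocyte markers lay between 2930 and 3200 in TSA cultures and between 3000 and 4080 in DMSO cultures. Of the muscle markers 7 of 8 tested were lower with TSA (summed signal 1040 to 1130 in TSA cultures and 1780 to 3660 in DMSO cultures), and of the 8 fibroblast markers 6 were lower and 1, Thy1, higher (31300 to 35500 in TSA cultures and 44300 to 52900 in DMSO cultures). Of the endothelial markers 1 of 5 tested was higher. Whether any of these shifts had a part in the results on proteasome genes was not tested.

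Promoter windows show where in the genome genes begin, and what letters stand there. They run from 250 bases before to 50 bases after the annotated start in RefSeq (mouse build GRCm38.p6) and were found for 35 of the 42 members, with 37 windows in all. The windows of the 3 immunoproteasome catalytic genes and of Psmd4, the 19S gene with the greatest change by the probe sets chosen, are printed 5′ to 3′ on the gene's strand, with every match to any of 6 motifs in capitals. Psmb10 lies at chr8:105938343-105938642 on the minus strand, Psmb9 at chr17:34187281-34187580 on the minus strand, Psmb8 at chr17:34197945-34198244 on the plus strand and Psmd4 at chr3:95042565-95042864 on the minus strand.
Psmb10: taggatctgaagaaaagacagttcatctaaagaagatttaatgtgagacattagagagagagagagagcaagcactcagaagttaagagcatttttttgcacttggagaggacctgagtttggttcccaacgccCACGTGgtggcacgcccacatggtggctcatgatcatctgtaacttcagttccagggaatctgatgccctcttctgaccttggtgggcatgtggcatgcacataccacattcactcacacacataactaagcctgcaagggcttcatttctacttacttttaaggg
Psmb9: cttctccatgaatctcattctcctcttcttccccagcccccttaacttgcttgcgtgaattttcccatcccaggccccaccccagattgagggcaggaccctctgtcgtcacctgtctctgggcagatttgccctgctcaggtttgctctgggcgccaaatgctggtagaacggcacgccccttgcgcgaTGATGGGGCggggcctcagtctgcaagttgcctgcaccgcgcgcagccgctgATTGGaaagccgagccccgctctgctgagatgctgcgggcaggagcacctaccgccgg
Psmb8: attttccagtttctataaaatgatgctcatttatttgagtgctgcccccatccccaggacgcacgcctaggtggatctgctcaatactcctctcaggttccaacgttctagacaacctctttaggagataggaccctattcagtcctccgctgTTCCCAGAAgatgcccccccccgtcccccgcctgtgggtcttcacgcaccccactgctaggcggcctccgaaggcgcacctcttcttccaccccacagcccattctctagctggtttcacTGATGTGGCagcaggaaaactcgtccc
Psmd4: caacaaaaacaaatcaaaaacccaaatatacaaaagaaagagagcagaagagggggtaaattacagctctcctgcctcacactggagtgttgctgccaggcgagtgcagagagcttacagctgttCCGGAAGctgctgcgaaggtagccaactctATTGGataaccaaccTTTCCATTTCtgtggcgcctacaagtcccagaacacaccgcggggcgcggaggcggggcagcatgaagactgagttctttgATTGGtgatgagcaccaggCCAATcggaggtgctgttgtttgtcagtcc

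The motifs were searched on both strands as letters only: an antioxidant response element core (TGANNNNGC), a CCAAT box (CCAAT), an ETS core (CCGGAAG), an E-box (CACGTG), an interferon response element core (a pair of GAAA runs with NN between them) and a gamma activated site (TTCNNNGAA). The first was held by 56.8% of member windows and 41.3% of the 32851 windows of all genes. The CCAAT box was in 37.8% of member windows and 37.4% of all. The ETS core was in 35.1% of member windows, 13 of 37, and 8.86% of all windows. The E-box was in 10.8% against 7.15%, the interferon response element core in 10.8% against 3.44%, and the gamma activated site in 5.41% against 8.30%. Member windows also had a higher base composition of G and C, with a median of 57.3% against 52.7%. The shares are descriptions of the letters and were not tested. Of the windows printed, only Psmd4 held the interferon response element letters, only Psmb8 the gamma activated site letters, and only Psmb10 the E-box.

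The ETS core stood in 7 of the 17 members with a window that were called higher with TSA (Psma6, Psmc1, Psmd2, Psmd4, Psmd6, Psmd13 and Psme4) and in 5 of the other 18 (Psmc2, Psmc6, Psmd11, Psmd12 and Psme3). It is shown here for 6 of the 7, with its surroundings, because it was the motif whose share differed most from that of all windows. Psmd4 is the exception, since its match is in the window above. The match is in capitals, as CCGGAAG or as its reverse complement, and Psma6 held 3 matches.
Psma6: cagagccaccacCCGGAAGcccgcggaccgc
Psma6: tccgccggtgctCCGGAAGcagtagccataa
Psma6: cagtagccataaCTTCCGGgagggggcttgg
Psmc1: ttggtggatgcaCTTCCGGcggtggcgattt
Psme4: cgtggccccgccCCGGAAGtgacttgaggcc
Psmd2: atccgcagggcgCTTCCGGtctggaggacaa
Psmd6: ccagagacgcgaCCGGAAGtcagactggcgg
Psmd13: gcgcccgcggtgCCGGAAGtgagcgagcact
These stretches were at chr12:55398681-55398711, chr12:55398811-55398841 and chr12:55398830-55398860 for Psma6, chr12:100110162-100110192 for Psmc1, chr16:20651614-20651644 for Psmd2, chr14:14120972-14121002 (minus strand) for Psmd6, chr7:140882376-140882406 for Psmd13 and chr11:30771710-30771740 for Psme4. In Psma6 the first base of a match lay at -132, -2 and 18 from the start, in Psmc1 at -28, in Psmd2 at -26, in Psmd6 at -45, in Psmd13 at -6 and in Psme4 at -53. Psma6 has another annotated start, whose window at chr12:55383972-55384271 held 0 matches to the ETS core.

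With TSA, many constitutive core and regulatory particle genes rose by small amounts, while of the immunoproteasome catalytic genes Psmb9 rose and Psmb10 fell. Of the 41 members tested 19 (46.3%) were called higher, against 27.1% of all genes tested, and 2 (4.88%) were called lower, against 23.0% of all genes. The median difference of members, TSA minus DMSO, was 0.28 on the log2 scale, and that of all genes was -0.0439. The 2 that fell were Psmb10 and the ATPase gene Psmc5. Before adjustment, limma's p was under 0.05 for 24 members higher and 3 lower, the other one being Psma4, and for 29.5% and 27.3% of all genes. Of the 41 members tested, 18 (43.9%) had every TSA culture above every DMSO culture, against 28.4% of all genes, 2 (4.88%) had every TSA culture below, against 27.0% of all genes, and 21 overlapped.

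With each of the kinase inhibitors, at most 1 member was called, as the plot of differences by class shows. LY294002 gave 1 member higher (2.44%, against 9.32% of all genes) and 0 lower (against 2.36%). UO126 gave 0 higher (against 1.78% of all genes) and 0 lower (against 1.09%), and SB202190 gave 0 higher (against 1.88%) and 0 lower (against 1.11%). Before adjustment, limma's p was under 0.05 for 2 members higher and 0 lower with LY294002 (20.6% and 8.67% of all genes), for 1 higher and 2 lower with UO126 (7.92% and 4.32%), and for 1 higher and 0 lower with SB202190 (10.1% and 5.03%).

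**Figure D1:**
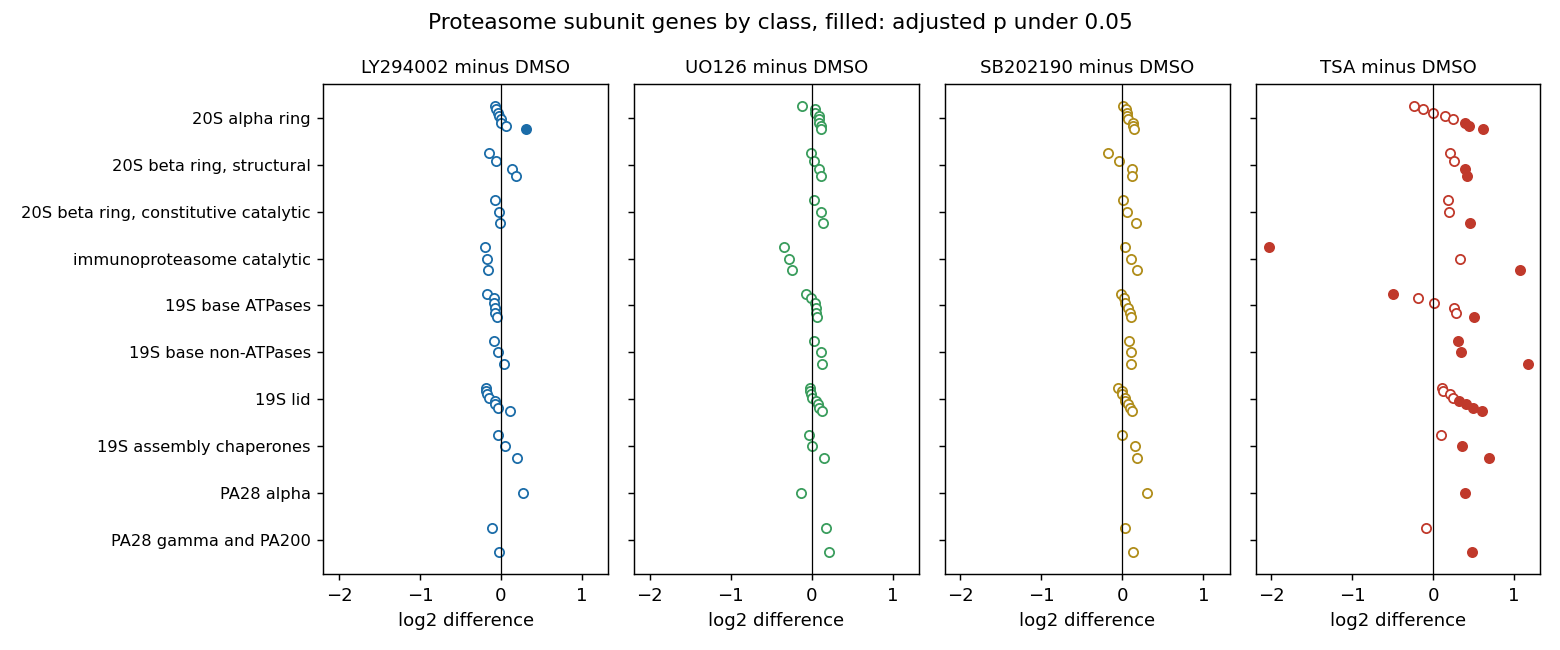
Log2 difference from DMSO (horizontal axis) of each of the 41 members tested, by class (rows) and inhibitor (panels); filled points have an adjusted p under 0.05 in limma's fit. With TSA 21 points are filled and reach from -2.03 (Psmb10) to 1.17 (Psmd4), with LY294002 only that of Psma8 is filled, and with UO126 and SB202190 none is.

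The immunoproteasome catalytic genes moved apart with TSA. Psmb10, which takes the place of Psmb7 in the immunoproteasome, had log2 signals of 7.70, 7.75 and 7.49 in TSA cultures, against 9.82, 9.69 and 9.54 in DMSO cultures. The TSA values were far below all others, and the difference was -2.03 ± 0.10 (SE), or 4.09-fold lower (limma, adjusted p = 1.47e-10).

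Psmb9, which takes the place of Psmb6, had 7.84, 7.59 and 8.03 in TSA cultures, against 6.73, 6.83 and 6.67 in DMSO cultures. All TSA values were above all DMSO values, with a difference of 1.08 ± 0.10 (SE), or 2.11-fold higher (limma, adjusted p = 2.18e-07). Psmb8, which takes the place of Psmb5, had 7.80, 7.35 and 7.65 in TSA cultures and 7.47, 7.28 and 7.06 in DMSO cultures. These groups overlapped, and the difference of 0.33 ± 0.13 (SE) missed the threshold (limma, adjusted p = 0.0570, 95% interval 0.05 to 0.62).

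The kinase inhibitors left all 3 of these genes without a call. Psmb10 had 9.68, 9.38 and 9.38 with LY294002, 9.40, 9.34 and 9.27 with UO126, and 9.998, 9.757 and 9.841 with SB202190. All UO126 values were below all DMSO values by a narrow margin, with a difference of -0.35 ± 0.10 (SE; limma, adjusted p = 0.129). The replicate numbers of UO126 and DMSO arrays paired, and with the replicate number as a block Psmb10 was called lower (adjusted p = 0.0140), which made 1 member lower, against 2.33% of all genes in that fit.

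Psmb9 had 6.52, 6.59 and 6.61 with LY294002, 6.59, 6.48 and 6.33 with UO126, and 6.76, 6.84 and 6.95 with SB202190. The LY294002 and UO126 values were all below the DMSO values, but the differences of -0.17 and -0.28 were not called (limma, adjusted p = 0.311 and 0.275). Psmb8 had 7.32, 7.04 and 6.97 with LY294002, 7.21, 6.80 and 7.06 with UO126, and 7.37, 7.26 and 7.29 with SB202190, with overlap of DMSO in each.

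**Figure D2:**
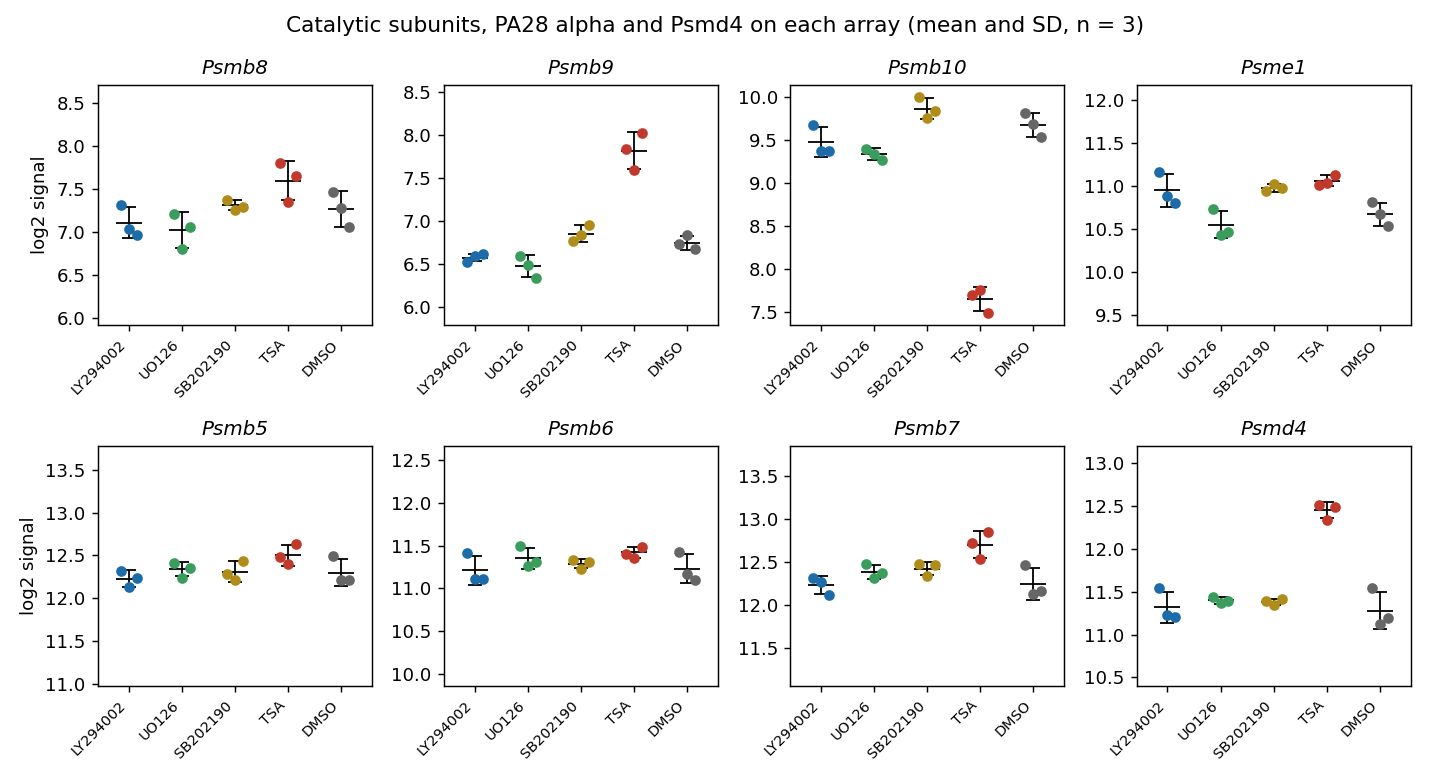
Log2 signal of 8 members on each of the 15 arrays (points) with the mean and SD of each treatment (black, n = 3); every panel spans the same log2 range, and levels of different genes are not comparable because each has its own probe set. Psmb10 stood at 7.49 to 7.75 in TSA cultures, below all other treatments, and Psmb9 (7.59 to 8.03) and Psmd4 (12.34 to 12.51) were above all others there.

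The inhibitors were also set against each other in 6 pairs of the same fit. Psmb10 was lower with TSA than with LY294002, UO126 and SB202190 by -1.83, -1.69 and -2.22 (limma, adjusted p = 4.67e-10, 1.16e-09 and 5.82e-11). Psmb9 was higher with TSA than with each of them, by 1.25, 1.35 and 0.97 (limma, adjusted p = 3.78e-08, 1.35e-08 and 8.46e-07). Psmb8 was higher with TSA than with LY294002 by 0.49 and than with UO126 by 0.58 (limma, adjusted p = 0.00711 and 0.00212), whereas its difference from SB202190 was 0.29 (adjusted p = 0.101, 95% interval 0.01 to 0.58).

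Between kinase inhibitors, Psmb10 was lower with UO126 than with SB202190 by -0.53 ± 0.10 (SE; limma, adjusted p = 0.00511), with no overlap of the arrays. Psmb9 was lower in the same pair by -0.38 (limma, adjusted p = 0.0361), a call lost in 5 of 14 alternatives with adjusted p up to 0.199. Psmb10 with LY294002 was lower than with SB202190 by -0.38 (limma, adjusted p = 0.0445), a call lost in 8 of 14 alternatives with adjusted p up to 0.220. Over all members, TSA gave 23 higher and 3 lower than LY294002 (23.2% and 23.9% of all genes), 16 and 3 against UO126 (26.2% and 23.8%), and 15 and 3 against SB202190 (24.5% and 20.8%). LY294002 gave 2 higher and 0 lower than UO126 (5.13% and 2.51%), 0 and 1 against SB202190 (4.00% and 2.25%), and UO126 gave 0 and 3 against SB202190 (3.68% and 3.45%). Before adjustment the counts in these pairs of kinase inhibitors were 2 and 5 (15.7% and 8.91% of all genes), 1 and 2 (12.9% and 6.79%), and 0 and 3 (8.30% and 9.81%). These comparisons share arrays with those against DMSO.

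The constitutive partners had smaller differences with TSA than Psmb9 and Psmb10, though genes were not tested against each other. Psmb7, the trypsin-like site, had 12.72, 12.53 and 12.85 in TSA cultures, against 12.46, 12.12 and 12.16 in DMSO cultures, a difference of 0.45 ± 0.10 (SE; limma, adjusted p = 0.00176). Psmb5, the chymotrypsin-like site that proteasome inhibitor drugs target, had 12.48, 12.40 and 12.63 in TSA cultures and 12.49, 12.21 and 12.21 in DMSO cultures. Psmb6, the caspase-like site, had 11.40, 11.36 and 11.48 in TSA cultures and 11.43, 11.17 and 11.10 in DMSO cultures. Only Psmb7 separated the groups, and the differences of Psmb5 and Psmb6 were 0.20 and 0.18 (limma, adjusted p = 0.111 and 0.163). So with TSA, Psmb10 fell while Psmb7, the subunit it replaces, rose.

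Psmb9 and Psmb8 are neighbours of the peptide transporter genes Tap1 and Tap2 on chromosome 17, in the order Psmb9, Tap1, Psmb8, Tap2. With TSA the difference was 1.08 for Psmb9, -0.01 for Tap1 (limma, adjusted p = 0.916), 0.33 for Psmb8 and 0.36 for Tap2 (limma, adjusted p = 0.0340). Of these 4 adjacent genes, Psmb9 and Tap2 were called higher and Tap1 and Psmb8 were not, and the differences between genes were not tested. Psmb10 lies alone among the members on its stretch of chromosome 8, between Ctrl and Lcat.

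Among the alpha ring genes, which form the gate of the barrel, 3 of 8 (37.5%) rose with TSA and 0 fell, against 27.1% and 23.0% of all genes. Psma6 had 12.54, 12.38 and 12.72 in TSA cultures, against 12.15, 11.85 and 11.78 in DMSO cultures, and rose by 0.62 ± 0.11 (SE; limma, adjusted p = 0.000263), or 1.53-fold. Of its 3 other probe sets, 2 gave 0.70 and 0.51, both called, and 1 was below the signal minimum. Psma5 and Psma2 rose by 0.44 and 0.39 (limma, adjusted p = 0.00335 and 0.00867). The call of Psma5 was lost with its probe sets averaged (0.18, adjusted p = 0.0927), and that of Psma2 was lost without DMSO culture 3 (adjusted p = 0.0557). Psma1, Psma3, Psma4, Psma7 and Psma8 were not called, with differences between -0.23 and 0.25.

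Of the 4 structural beta subunits, Psmb3 and Psmb4 rose by 0.42 and 0.39 with TSA (limma, adjusted p = 0.00813 and 0.00315). Psmb1 and Psmb2 had differences of 0.21 and 0.26 and were not called, and Psmb2 was the most scattered member in TSA cultures, with 11.75, 10.99 and 11.59. Over the 14 constitutive core genes, 6 (42.9%) rose and 0 fell, against 27.1% and 23.0% of all genes, and the median difference was 0.25.

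The regulatory particle has a base with a ring of ATPases that unfold substrates. Of these 6 genes, Psmc1 rose by 0.51 ± 0.13 (SE; limma, adjusted p = 0.00367), and by 0.24 with its probe sets averaged. Psmc5 had 11.21, 11.06 and 11.19 in TSA cultures, against 11.83, 11.52 and 11.59 in DMSO cultures, and fell by 0.49 (limma, adjusted p = 0.000349), with no overlap. Psmc2, Psmc3, Psmc4 and Psmc6 had differences between -0.18 and 0.28 and were not called. The ring is built from 1 copy of each of the 6 products, and the 2 called genes moved in opposite directions.

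The non-ATPase genes of the base were called higher in 3 of 3, against 27.1% of all genes. Psmd4, a ubiquitin receptor, had 12.51, 12.34 and 12.49 in TSA cultures, against 11.54, 11.12 and 11.19 in DMSO cultures. This rise of 1.17 ± 0.11 (SE), or 2.24-fold, was called (limma, adjusted p = 1.43e-07), and Psmd4 was also higher with TSA than with LY294002, UO126 and SB202190, by 1.12, 1.05 and 1.07. The other probe sets of Psmd4 gave 1.12 (called) and 0.00 (limma, adjusted p = 0.988), and the average of its probe sets rose by 0.76. The scaffold genes Psmd1 and Psmd2 rose by 0.31 and 0.35 (limma, adjusted p = 0.0168 and 0.0268). Psmd2 overlapped between TSA and DMSO cultures. Both calls were lost with single cultures left out, up to an adjusted p of 0.0615 for Psmd1 (without TSA culture 3) and 0.125 for Psmd2 (without TSA culture 1). With quantile normalization they rose by 0.18 and 0.23, and with its probe sets averaged Psmd2 was not called (0.14, adjusted p = 0.0991).

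In the lid, which removes ubiquitin chains, 4 of 8 genes rose with TSA and 0 fell, against 27.1% and 23.0% of all genes. Psmd8 had 11.82, 11.71 and 12.07 in TSA cultures, against 11.28, 11.18 and 11.34 in DMSO cultures, and rose by 0.60 ± 0.11 (SE; limma, adjusted p = 0.000348), or 1.52-fold. Psmd3, Psmd13 and Psmd6 rose by 0.50, 0.41 and 0.32 (limma, adjusted p = 0.000178, 0.00751 and 0.0401). With its probe sets averaged Psmd13 was not called (0.09, adjusted p = 0.282). The call of Psmd6 was lost on leaving out any 1 of 5 cultures (DMSO 2 and 3 and all 3 with TSA), up to an adjusted p of 0.149. Psmd14, the deubiquitinase itself, had a difference of 0.24 (limma, adjusted p = 0.0953), and Psmd7, Psmd11 and Psmd12 were not called either. Over the 17 genes of base and lid, 8 (47.1%) rose and 1 (5.88%) fell, against 27.1% and 23.0% of all genes. The median difference of these 17 was 0.28.

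Of the 3 chaperones that assemble the base, Psmd10, also known as the oncoprotein gankyrin, had 9.68, 9.58 and 9.71 in TSA cultures, against 9.20, 8.79 and 8.91 in DMSO cultures. It rose by 0.69 ± 0.10 (SE; limma, adjusted p = 2.17e-05), or 1.61-fold, without overlap. Psmd5 rose by 0.36 (limma, adjusted p = 0.0108; 0.0525 without DMSO culture 2), and Psmd9 had a difference of 0.09.

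Among the activators, Psme4, which encodes PA200, rose by 0.47 ± 0.09 (SE) with TSA (limma, adjusted p = 0.000557; 0.24 with its probe sets averaged), and Psme3, which encodes the nuclear PA28 gamma, had a difference of -0.08. Psme1 (PA28 alpha) is, like the immunoproteasome subunits, inducible by interferon. It had 11.17, 10.88 and 10.80 with LY294002, 10.73, 10.43 and 10.47 with UO126, 10.94, 11.03 and 10.98 with SB202190, 11.01, 11.04 and 11.13 with TSA, and 10.81, 10.67 and 10.54 with DMSO. TSA and SB202190 cultures lay above all DMSO cultures, UO126 cultures overlapped with them, and the LY294002 cultures did so by a narrow margin.

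The TSA difference of Psme1 was 0.39 ± 0.10 (SE; limma, adjusted p = 0.00581), and those with LY294002 and SB202190 were 0.28 and 0.31 (limma, adjusted p = 0.112 and 0.171). With the replicate number as a block, which paired LY294002 and DMSO arrays, Psme1 was called higher with LY294002 too (adjusted p = 0.0447), which made 2 members higher, against 17.2% of all genes in that fit. Set against UO126, Psme1 was higher with TSA by 0.52 (limma, adjusted p = 0.000622). It was also higher with LY294002 than with UO126, by 0.40 (limma, adjusted p = 0.0305), and lower with UO126 than with SB202190, by -0.44 (limma, adjusted p = 0.0187), and each of these calls was lost in 5 of 14 alternatives. The probe set shared by Psme2 and Psme2b had a TSA difference of 0.14 (limma, adjusted p = 0.190).

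The constitutive genes also shared their variation between cultures of 1 treatment, as the plot of medians per array shows. The median of the 14 constitutive core genes, relative to the DMSO mean, was 0.35, 0.16 and 0.37 in TSA cultures, against 0.19, -0.05 and -0.13 in DMSO cultures. The same median over the 17 regulatory particle genes was 0.29, 0.18 and 0.35 in TSA cultures, against 0.22, -0.09 and -0.12 in DMSO cultures. TSA culture 2 lay just below DMSO culture 1 for both particles, and DMSO culture 1 was the high one of its group. Over members, the median SD within a treatment was 0.16 with LY294002, 0.12 with UO126, 0.079 with SB202190, 0.11 with TSA and 0.18 with DMSO. Leaving out 1 culture at a time gave between 15 and 28 members higher with TSA, with 28 without DMSO culture 1 and 15 without DMSO culture 2 or 3. The shares of all genes in those fits are not given here, so whether these shifts were particular to members cannot be told.

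**Figure D3:**
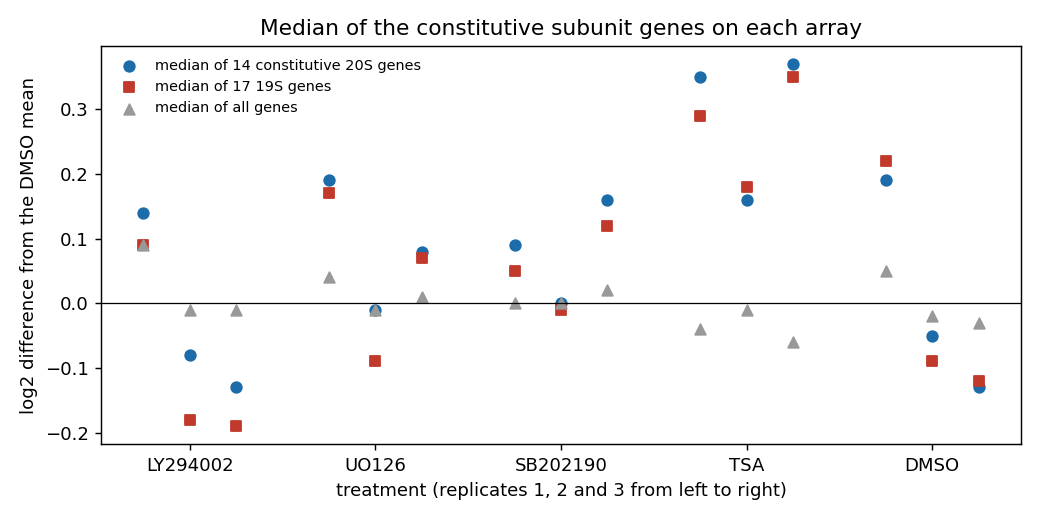
Median log2 difference from the DMSO mean on each array, for 14 constitutive core (20S) genes, 17 regulatory particle (19S) genes and all genes; 3 arrays per treatment. Core and regulatory particle medians lie close to each other on each array, at 0.16 to 0.37 in TSA cultures and -0.13 to 0.22 in DMSO cultures, while the median of all genes stays between -0.06 and 0.09.

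With LY294002, the called member was Psma8, an alpha subunit known from the testis in mice. It had 6.79, 6.47 and 6.57 with LY294002, against 6.31, 6.27 and 6.31 with DMSO, all LY294002 values being higher. The difference was 0.31 ± 0.09 (SE), or 1.24-fold (limma, adjusted p = 0.0362), at a low signal, and it was not tested with a signal minimum of 100. The call was lost on leaving out any 1 of 4 cultures: DMSO 2 (adjusted p = 0.115), DMSO 3 (0.0944), LY294002 1 (0.184) and LY294002 3 (0.0511). Psma8 was also higher with LY294002 than with UO126, by 0.43 (limma, adjusted p = 0.00823), and lower with TSA than with LY294002, by -0.44 (limma, adjusted p = 0.000659).

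The remaining members lay mostly below zero with LY294002, with 30 of 41 means lower and a median of -0.06. After quantile normalization of the arrays 14 of 41 members (34.1%) were called lower with LY294002, between -0.33 and -0.20, against 5.57% of all genes, and the member median was -0.19. Those 14 were Psma5, Psmb3, Psmb5, Psmb10, Psmc2, Psmc3, Psmc5, Psmc6, Psmd1, Psmd7, Psmd11, Psmd12, Psmd13 and Psmd14. On the values as deposited none of them was called, so the lower call with LY294002 depends on the scaling.

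With UO126 and SB202190 the means were higher in 29 and 34 of 41 members, with medians of 0.05 and 0.07. For the 31 constitutive core and regulatory particle genes, the 95% intervals of single differences lay between -0.46 and 0.37 with UO126, between -0.54 and 0.42 with SB202190 and between -0.46 and 0.39 with LY294002. Rises of more than 1.29-fold with UO126, 1.34-fold with SB202190 and 1.31-fold with LY294002 were thus outside the interval of each of the 31 genes. On the lower side the intervals reached 0.727-fold of DMSO with UO126, 0.688-fold with SB202190 and 0.727-fold with LY294002. Each interval is that of a single gene, on the values as deposited. The intervals are from the fit without the replicate block, although the replicate numbers of these inhibitors paired with those of DMSO. Across all 5 treatments, limma's F test called 20 of 41 members (48.8%), against 53.5% of all genes.

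Genes that act with the proteasome were counted from fixed lists. Of 14 assembly and associated factors, 2 rose with TSA and 2 fell (14.3% each, against 27.1% and 23.0% of all genes). Psmg2, a chaperone of the alpha ring, rose by 1.07 and Zfand5, an activator of the proteasome, by 0.81 (limma, adjusted p = 1.10e-06 and 9.74e-06), while Psmg4 and Ecpas fell by 0.38 and 0.29. With probe sets averaged the differences were 0.70 for Psmg2, 0.33 for Zfand5 and -0.16 for Psmg4, all called, and the call of Ecpas was lost in 6 alternatives (limma, adjusted p up to 0.0922). Psmg1, the partner of Psmg2, had a difference of 0.08 (adjusted p = 0.568). With LY294002 only Zfand5 was called, higher by 0.53 (limma, adjusted p = 0.00637), a call lost in a fit of LY294002 and DMSO alone (adjusted p = 0.0587) and with probe sets averaged (0.13, adjusted p = 0.200). With UO126 and SB202190 0 of 14 were called by limma (1 and 2 higher before adjustment), and the differences of Zfand5 were 0.27 and 0.32. With the replicate number as a block, which paired SB202190 and DMSO arrays too, Zfand5 was called higher with SB202190 (limma, adjusted p = 0.0354), as it was without DMSO culture 1 (0.0415) and after quantile normalization (0.0312).

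The transcription factor NRF1, encoded by Nfe2l1, raises proteasome genes when the protease is impaired. The RNA of Nfe2l1 itself had a TSA difference of 0.02 (limma, adjusted p = 0.918), and the activity of the NRF1 protein was not measured. Of the 10 genes on that list, 4 rose with TSA and 2 fell (against 27.1% and 23.0% of all genes). Those that rose were Nfe2l2 by 0.75, Mafk by 0.57, Maff by 0.56, and Ufd1. Those that fell were Keap1, the inhibitor of the Nfe2l2 product, by 0.69, and Mafg, so the Maf genes called did not all move the same way. LY294002 gave Maff and Ngly1 higher, by 0.52 and 0.44 (limma, adjusted p = 0.0236 and 0.0274), SB202190 gave Mafg higher by 0.34 (limma, adjusted p = 0.0277), and UO126 gave 0 calls by limma (1 higher and 1 lower before adjustment; Ufd1 was called higher after quantile normalization, adjusted p = 0.0352). The call of Mafg was lost without any 1 DMSO or SB202190 culture and in the fit of those groups alone (adjusted p up to 0.114), that of Ngly1 in 5 alternatives (up to 0.148) and that of Maff in 3 (up to 0.0987).

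On the list of ubiquitin and shuttle genes, whose products carry tagged proteins to the proteasome, 5 of 11 genes were measured. Of these 5, 4 rose with TSA, against 27.1% of all genes: Sqstm1 by 1.05, Ubqln2 by 0.91, Ubqln1 by 0.45 and Rad23b by 0.41. With probe sets averaged these were 0.63, 0.35, 0.10 (not called, limma, adjusted p = 0.346) and 0.16, and Rad23b was not called after quantile normalization (limma, adjusted p = 0.0789). Sqstm1 also rose with SB202190, by 0.57 (limma, adjusted p = 0.00515), or 0.36 with its probe sets averaged. LY294002 and UO126 gave 0 of 5 called by limma (2 higher each before adjustment), but with the block Ubqln2 and Sqstm1 were called higher with LY294002, by 0.43 and 0.23 (limma, adjusted p = 0.0133 and 0.0409). Without DMSO culture 1 Ubqln2 was called as well (limma, adjusted p = 0.0118).

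Of 18 interferon and antigen processing genes 17 were tested with TSA, of which 12 (70.6%) rose and 1 (5.88%) fell, against 27.1% and 23.0% of all genes. Bst2, Usp18 and Ifit1, all induced by interferon, rose by 2.04, 2.02 and 1.30, and Erap1, which trims peptides for presentation, fell by 2.20 (limma, adjusted p = 3.93e-11). Irf1, a factor that drives immunoproteasome genes, had a difference of 0.08 (limma, adjusted p = 0.517), and Nlrc5 was below the signal minimum. LY294002 gave Oas1a and Usp18 lower, by -0.36 and -0.34, while Gbp2 fell by 0.42 with UO126 and rose by 0.40 with SB202190 (limma, adjusted p = 0.0205 and 0.0276). These calls were lost in some alternatives, up to an adjusted p of 0.114 for Oas1a (3 alternatives), 0.104 for Usp18 (6, not tested in 1 of them), 0.129 for Gbp2 with UO126 (6) and 0.170 for Gbp2 with SB202190 (5).

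The choice of probe set mattered for some members, as the plot of other probe sets shows. Besides the 42 chosen, 46 probe sets were annotated to members, of which 34 were tested with TSA. For the 13 of them whose gene was called by its chosen probe set, 8 were called in the same direction, 1 was called in the opposite direction (Psmd13) and 4 were not called. A further 7 were called where the chosen one was not, among them both other probe sets of Psmc6, at 0.86 and 0.87, against 0.28 for the chosen one. Psmb9, Psmb10 and Psme1 had 1 probe set each, and the second of Psmb8 was below the signal minimum. When all probe sets of a gene were averaged, 17 members were called higher with TSA, and the share of all genes in that fit is not given here.

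**Figure D4:**
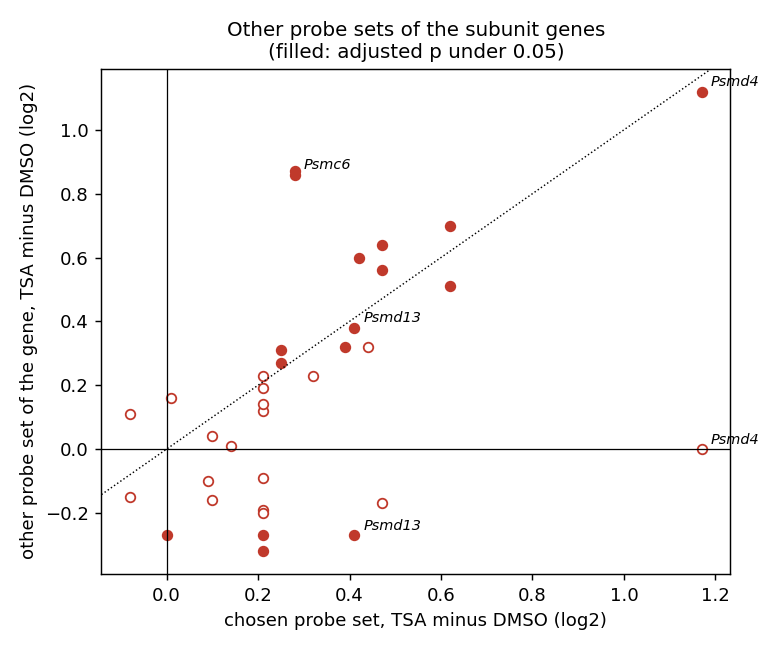
Log2 difference of TSA minus DMSO for each of the 34 other probe sets tested (vertical axis) against that of the chosen probe set of the same gene (horizontal axis); filled points have an adjusted p under 0.05 and the dotted line marks equal values. The 2 other probe sets of Psmc6 (0.86 and 0.87) overlie each other above the line, 1 of Psmd13 (-0.27) and 1 of Psmd4 (0.00) lie below it.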

How the data were processed

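Total RNA from 15 cultures was measured on Affymetrix mouse expression arrays, 1 per culture. The authors deposited log2 signals for each probe set on each array. The study names GC-RMA for arrays deposited with it and RMA for its gene set analysis, and which of these made the table was not settled. Array medians lay between 6.90 and 7.00 and values between 3.02 and 14.4. There are no counts or depths, so precision was judged from the spread between arrays of a treatment and from their number. Of 45101 probe sets 64 controls were left out. Of the 45037 kept, 34945 had 1 symbol, 932 several and 9160 none, from GEO's platform annotation. Of the identifiers, 34741 were found in RefSeq, where 0 symbols changed. No genome build is given for the table, so GRCm38.p6 was used for promoter windows and gene order only.

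A probe set was tested where its mean in either treatment reached log2 of 50 (5.64), after the study's signal filter. A linear model with a mean for each treatment was fitted to the 15 arrays in limma 3.58.1 (R 4.3.3) (10 residual degrees of freedom), with empirical Bayes moderation and Benjamini-Hochberg adjustment over all probe sets tested. Shares of all genes use the brightest probe set per gene. The script was tested on simulated data. Groups and replicate numbers came from the labels. The study speaks of 3 independent experiments. Same-numbered arrays deviated together from their group means in all 3 pairs for LY294002 (r = 0.769, 0.405 and 0.627), UO126 (0.718, 0.540 and 0.328) and SB202190 (0.237, 0.302 and 0.325), each with DMSO. For TSA they did so in pairs 1 and 2 (r = 0.239 and 0.474) but not in pair 3 (0.0284).

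Alternatives were a replicate block, a fit of 2 groups alone, no signal filter, a signal minimum of 100, quantile normalization, median centring, a trended robust prior, averaging a gene's probe sets and each array left out. A fit without the TSA arrays was chosen after seeing the data. Values on every array were given for the immunoproteasome catalytic genes, their constitutive partners, Psme1 and up to 6 called members per comparison with the largest difference. Members other than these were given by counts, with the single value of any called. From each pathway list the called genes with the largest change were named, up to 4 per comparison, and otherwise the 2 with the largest change. Nfe2l1, Psmg1, Irf1 and the Tap genes were named after their values were seen. Members and lists were chosen with earlier results of these data known.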

Additional observations from a re-analysis of the deposited data

Results flagged for a closer look

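These are signals of probe sets that the comparisons of the report did not use, because another probe set of the same gene had a higher mean. Each was called (limma, adjusted p under 0.05) where the chosen probe set of the gene was not, or was called the other way. With LY294002, another probe set of Psme3 was lower by -0.38 (adjusted p = 0.0396), against a difference of -0.11 for the chosen one. With TSA, both other probe sets of Psmc6 were higher, by 0.86 and 0.87 (adjusted p = 9.76e-05 and 0.00104), and those of Psma7 and Psmc2 were higher by 0.31 and 0.27 (adjusted p = 0.0387 and 0.0418), in the direction of the chosen probe sets. Another probe set of Psma3 was lower by -0.27 (adjusted p = 0.00806), and 2 of Psmd11 were lower by -0.32 and -0.27 (adjusted p = 0.00470 and 0.0374). Psmd13 had a probe set that was lower by -0.27 (adjusted p = 0.0115), whereas its chosen probe set was called higher by 0.41. What the probe sets of 1 gene measure apart was not tested. With 3 arrays per treatment, single arrays were not tested for standing apart.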

How the results depend on the processing

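Among differences of members from DMSO, no called value changed sign, whereas 29 values that were not called did. LY294002 gave 1 member higher, which became 2 with a replicate block, 0 in a fit of the 2 groups alone and 0 with a signal minimum of 100, and between 0 and 3 with single arrays left out (3 without DMSO culture 1). Lower calls changed with quantile normalization, to 14 with LY294002, 1 with UO126 (Psmb10, limma, adjusted p = 0.0278) and 4 with TSA against 2. Of all genes, 5.57%, 1.75% and 26.1% were called lower in those fits. The F test then called 35 members against 20, and the share of all genes for it is not given here. The block gave 1 lower with UO126, against 2.33% of all genes. For TSA the replicate numbers paired only in part (2 of 3 arrays correlated best with their own number). With TSA the block gave 26 members higher and 3 lower, against 29.9% and 27.6% of all genes in that fit. These included all 21 called without it. Other TSA counts lay between 17 and 20 higher, and between 15 and 28 with single arrays left out. Shares of all genes are not given here for these counts, nor for the LY294002 counts with single arrays left out. Psmb8 was called higher with TSA under the block (adjusted p = 0.00627), a signal minimum of 100 (0.0491), and without DMSO culture 1 (0.0213) or TSA culture 2 (0.0143). Averaging probe sets lost the calls of Psma5 (0.0927), Psmd13 (0.282), Psmd2 (0.0991) and Psmd6 (0.117). The cause of these changes was not tested. Among differences from DMSO of single members, 851 values kept their side of the threshold, 25 lost a call and 14 gained one, between inhibitors 955, 41 and 12, and among pathway genes 457, 45 and 7. Signals measure RNA in whole cultures, with 3 arrays per treatment.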
